A study of Mus musculus with 2 samples.

Results

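The genes described here were 7 matrix metalloproteinases, Mmp2, Mmp3, Mmp9, Mmp12, Mmp13, Mmp14 and Mmp19, with the related proteases Adamts1 and Adam10. These 9 genes, of 55401 in the files, were chosen by name, and each was present in both count matrices. Single-cell RNA counts were made from brains of C57BL/6J mice at 10 weeks of age. In the metastasis group the mice carried B16/F10-BrM, a mouse melanoma line placed in the brain by intracranial injection, and in the naive group the brains came from mice labelled as naive. For each group, 3 brains were pooled into 1 library, enriched for astrocytes with beads against the surface antigen ACSA-2 after myelin removal, so the shares of cell classes do not describe whole brain. Neither group had a replicate library. No difference between the libraries could therefore be set against the spread between animals, no test was made, and the intervals printed are exact 95% intervals that cover counting error only.

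Matrix metalloproteinases are zinc-dependent proteases that are made as latent precursors and, once activated, cut collagens, laminins, elastin and other proteins of the extracellular matrix. Most are secreted, while Mmp14 is anchored in the membrane and activates the Mmp2 precursor with the help of the inhibitor Timp2. Adamts1 is a secreted protease that cuts proteoglycans, and Adam10 is a membrane protease that releases the outer parts of surface proteins such as Notch receptors and the amyloid precursor protein. In brain tumours these enzymes are made by tumour cells, vessel cells and myeloid cells, and they are studied for their part in invasion and in the remodelling of vessel walls.

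The 120 bases before the start are shown for 5 members, because they differ in motifs known from metalloproteinase promoters. The sequences are from RefSeq, build GRCm38.p6, and run 5′ to 3′ on the strand of the gene. Capitals mark the AP-1 motif TGANTCA and the GC box GGGCGG, both searched on both strands, and the TATA box TATAAA, searched on the strand of the gene.
Mmp3, chr9:7445702-7445821, plus strand: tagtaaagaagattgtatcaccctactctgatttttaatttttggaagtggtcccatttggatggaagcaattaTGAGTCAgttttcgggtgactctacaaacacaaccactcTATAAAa
Mmp13, chr9:7272394-7272513, plus strand: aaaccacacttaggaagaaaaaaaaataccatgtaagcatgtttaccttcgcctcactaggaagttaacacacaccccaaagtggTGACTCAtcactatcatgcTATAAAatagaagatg
Mmp12, chr9:7344277-7344396, plus strand: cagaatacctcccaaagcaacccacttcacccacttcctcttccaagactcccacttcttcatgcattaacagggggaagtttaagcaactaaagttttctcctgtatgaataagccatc
Mmp12, second listed start, chr9:7347254-7347373, plus strand: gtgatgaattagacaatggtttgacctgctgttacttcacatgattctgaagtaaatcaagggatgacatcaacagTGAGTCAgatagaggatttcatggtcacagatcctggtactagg
Mmp14, chr14:54431478-54431597, plus strand: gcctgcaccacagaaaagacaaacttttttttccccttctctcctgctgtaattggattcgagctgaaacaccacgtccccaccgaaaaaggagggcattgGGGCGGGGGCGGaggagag
Adamts1, chr16:85803114-85803233, minus strand: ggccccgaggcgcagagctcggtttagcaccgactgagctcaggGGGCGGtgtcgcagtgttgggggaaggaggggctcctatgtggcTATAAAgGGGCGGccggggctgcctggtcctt
The stromelysin gene Mmp3 held AP-1 at 46 to 40 bases before the start and a TATA box at 7 to 2 bases before it. The collagenase gene Mmp13 held AP-1 at 35 to 29 bases and a TATA box at 16 to 11 bases before its start. Of the 2 starts listed for Mmp12, the first window held none of these motifs and the second held AP-1 at 44 to 38 bases. The Mmp14 window held 2 GC boxes and neither of the other motifs. The Adamts1 window held a TATA box at 32 to 27 bases and 2 GC boxes. Within 120 bases of the start, AP-1 was present in 3.41%, the TATA box in 4.19% and the GC box in 26.5% of 32851 mouse promoters. A match is only a stretch of letters, not a site shown to be used. For Adam10 the window chr9:70678862-70678981 held 2 overlapping GC boxes and neither AP-1 nor TATAAA. The promoters of Mmp2, Mmp9 and Mmp19 are not shown. In the GENCODE M21 annotation of GRCm38, Mmp13 chr9:7272514-7283331, Mmp12 chr9:7344381-7369499, Mmp3 chr9:7445822-7455975 and Adam10 chr9:70678997-70780229 are the spans of the members on chromosome 9. The others are Mmp2 chr8:92827291-92853420, Mmp9 chr2:164940780-164955850, Mmp14 chr14:54431612-54445364, Mmp19 chr10:128790910-128800824 and Adamts1 chr16:85793827-85803113, and all 9 are protein-coding genes.

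The total was 89193669 UMIs for metastasis and 69445557 UMIs for naive, a UMI being 1 captured RNA molecule read from its 3′ end. After barcodes under 1000 UMIs, under 500 genes or over 20% mitochondrial UMIs and likely doublets had been removed, 13057 cells were kept in metastasis and 13107 cells in naive. Cells were clustered without the protease, inhibitor and activator genes, and clusters were called "like" a cell type from its marker genes. After the data had been made public the submitters swapped the titles of the 2 libraries, and the current titles are used here. Melanoma-like cells numbered 694 in metastasis and 19 in naive. Their 12 pigment-lineage markers summed to 27347 CPM (UMIs of a gene per 1e6 UMIs of the class) in metastasis and 24513 CPM in naive. The naive library thus held a few cells that went against its label, and no ratio was drawn from that class. Kept barcodes that occurred in both libraries numbered 48, none of them in the melanoma-like class. Free RNA was read from droplets with 10 to 100 UMIs and, where this is said, from the larger pool of droplets with 100 to 300 UMIs.

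Members were spread very differently over the classes. Over all kept cells, Mmp14 had 4797 UMIs in metastasis and 1053 in naive, Adamts1 had 6154 in metastasis and 2766 in naive, and Adam10 had 5984 in metastasis and 3774 in naive. The other 6 genes were sparse. Mmp12 had 583 UMIs in metastasis and 2 in naive, and Mmp3 had 53 in metastasis and 0 in naive. Mmp13 had 89 in metastasis and 11 in naive. Mmp2, Mmp9 and Mmp19 had 272, 24 and 196 UMIs in metastasis and 239, 31 and 208 in naive. Mmp12, Mmp3 and Mmp13, which lie close together on chromosome 9, thus had most of their UMIs in metastasis, while Mmp2, Mmp9 and Mmp19 had similar sums in both libraries.

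**Figure D1:**
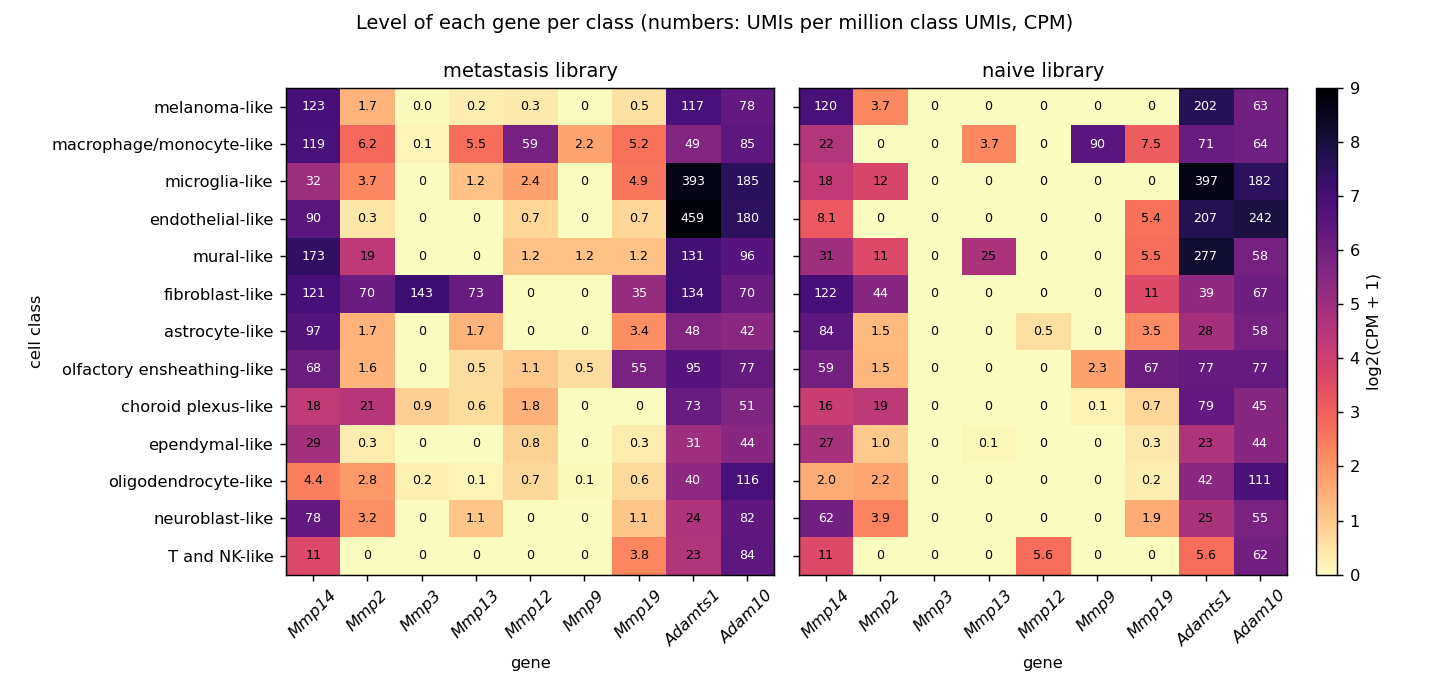
Level of each gene per class and library in CPM, with darker colour for a higher log2(CPM + 1). Mmp14 reached 123 CPM in melanoma-like and 119 CPM in macrophage/monocyte-like cells of metastasis, while Mmp12 was 58.6 CPM in macrophage/monocyte-like cells of metastasis and below 3 CPM in every other class of that library shown.

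Mmp14, the membrane-anchored collagenase on chromosome 14, was found in many classes of metastasis. Mural-like cells, which are the pericytes and smooth muscle of the vessel wall, stood highest at 173 CPM (146 to 204), from 146 UMIs. Melanoma-like cells had 123 CPM (118 to 128) and held 53.8% of the gene's UMIs in kept cells. Fibroblast-like cells had 121 CPM (85.7 to 166), and macrophage/monocyte-like cells had 119 CPM (112 to 126). The intervals of the melanoma-like, fibroblast-like and macrophage/monocyte-like cells overlapped, so these 3 classes could not be ranked. Astrocyte-like cells had 96.7 CPM and endothelial-like cells 89.5 CPM, below the macrophage/monocyte-like cells by value. Microglia-like cells, the resident brain myeloid cells, had 31.8 CPM (20.8 to 46.6), and oligodendrocyte-like cells had 4.35 CPM (3.41 to 5.48). In naive the order was different: fibroblast-like cells were first at 122 CPM, astrocyte-like cells followed at 84.2 CPM, and endothelial-like cells were near the bottom at 8.05 CPM.

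Between the libraries, Mmp14 was at least 2-fold higher in metastasis in the macrophage/monocyte-like, vessel and oligodendrocyte-like classes, and close to level in astrocyte-like and fibroblast-like cells. In macrophage/monocyte-like cells it had 1115 UMIs and 119 CPM in metastasis, against 6 UMIs and 22.4 CPM in naive, and the log2 ratio was 2.41 (1.28 to 3.85). In endothelial-like cells it had 261 UMIs and 89.5 CPM in metastasis, against 3 UMIs and 8.05 CPM in naive, and the log2 ratio was 3.48 (1.91 to 5.76). In mural-like cells it had 146 UMIs and 173 CPM in metastasis, against 11 UMIs and 30.5 CPM in naive, and the log2 ratio was 2.51 (1.62 to 3.54). In oligodendrocyte-like cells it had 72 UMIs and 4.35 CPM in metastasis, against 36 UMIs and 1.98 CPM in naive, and the log2 ratio was 1.14 (0.54 to 1.76). Of the 4 members measured in that class it was the only one past 2-fold, where 4.67% of 15061 genes were higher and 1.29% lower. Free RNA held 23.4 CPM of Mmp14 in metastasis (6 UMIs) and 25.8 CPM in naive (7 UMIs). In droplets with 100 to 300 UMIs it held 43.9 CPM in metastasis (479 UMIs) and 15.98 CPM in naive (171 UMIs), so in that pool free RNA moved with these ratios, and its part was not tested. The levels of macrophage/monocyte-like, endothelial-like and mural-like cells of metastasis were above both pools of that library. In naive, which had few UMIs in these classes, the endothelial-like value was below both pools, the macrophage/monocyte-like value was between them and the mural-like value was above both. The oligodendrocyte-like values were below both pools in each library. The ratio was 0.20 (-0.26 to 0.64) in astrocyte-like cells, -0.01 (-0.80 to 0.82) in fibroblast-like cells and 0.84 (-0.06 to 1.75) in microglia-like cells, all within 2-fold, and the microglia-like value of metastasis, 31.8 CPM, lay between its 2 pools of free RNA. Astrocyte-like cells, which the beads were meant to enrich, had 57 UMIs in metastasis and 169 in naive.

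The cells of these classes were deeper in metastasis. Macrophage/monocyte-like cells had a median of 4413 UMIs in metastasis and 2365 in naive, endothelial-like cells 4971 in metastasis and 2387 in naive, and mural-like cells 3493.5 in metastasis and 1845 in naive. Shares of cells with a Mmp14 UMI moved with this depth. In macrophage/monocyte-like cells the share was 39.1% in metastasis and 6.52% in naive, and with every cell thinned to 1000 UMIs it was 10.6% (9.19 to 12.2%) in metastasis and 4.35% (1.20 to 10.8%) in naive. In mural-like cells the thinned shares were 15.3% (9.83 to 22.2%) in metastasis and 7.44% (3.46 to 13.6%) in naive. In endothelial-like cells they were 3.86% (1.78 to 7.21%), or 9 cells, in metastasis and 0 cells in naive, which allows up to 3.13%. The thinned intervals overlapped in these 3 classes. In oligodendrocyte-like cells, whose Mmp14 level was lowest, the thinned shares were 0.572% in metastasis and 0.219% in naive, with median depths of 2739 UMIs in metastasis and 2967 UMIs in naive. With thinned cells the log2 ratio of Mmp14 was 1.10 in mural-like cells, and in endothelial-like cells it was at least 0.58, a bound with the 0 UMIs of naive set to 3.

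**Figure D2:**
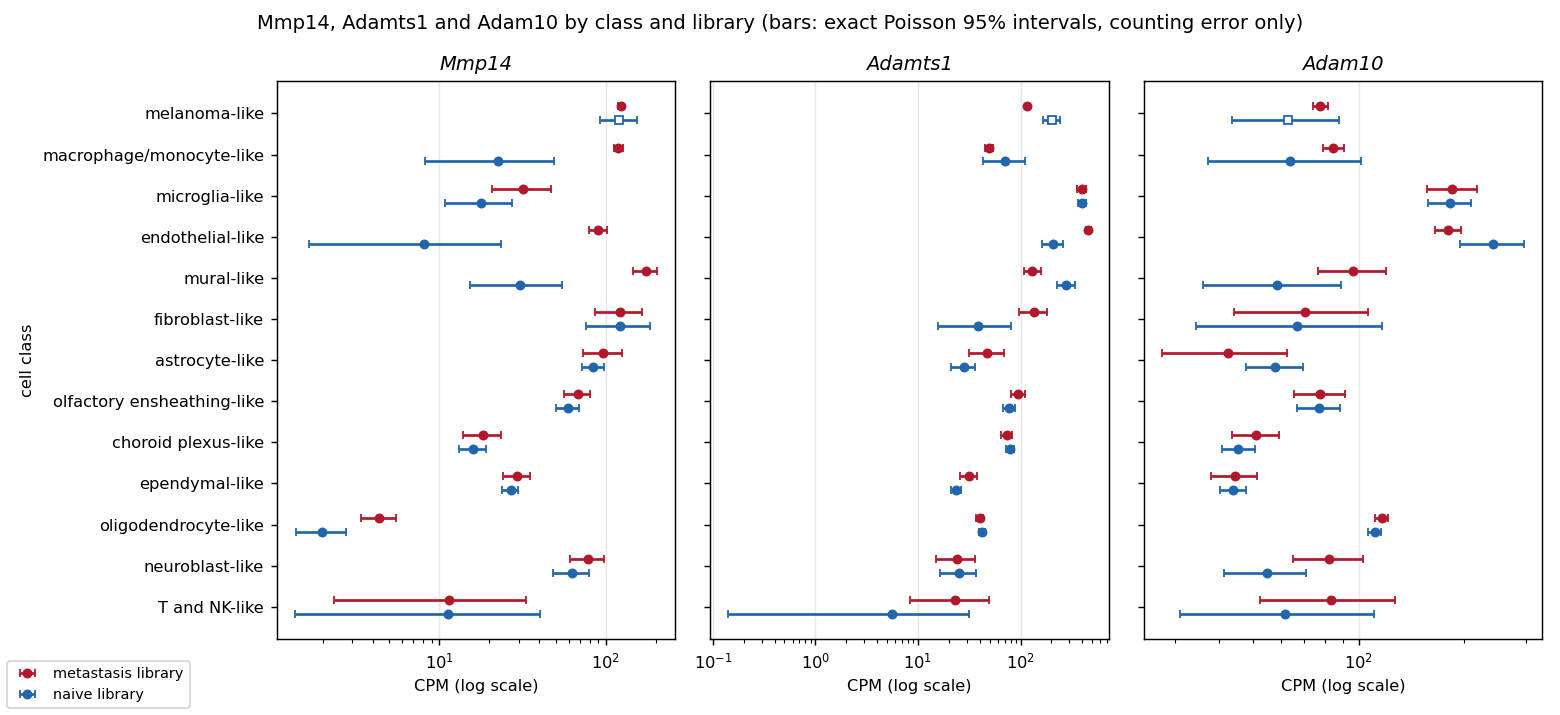
Levels of Mmp14, Adamts1 and Adam10 in CPM on a log scale, by class, for metastasis (red) and naive (blue), with exact Poisson 95% intervals; the open squares are the 19 melanoma-like cells of naive. Mmp14 in macrophage/monocyte-like, endothelial-like and mural-like cells stood at 119, 89.5 and 173 CPM in metastasis, above the naive intervals.

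Within the macrophage/monocyte-like class, Mmp14 was found across sub-clusters rather than in one of them. Cells led by the chemokine genes Cxcl9 and Ccl8 had 206 CPM (161 to 260), and cells led by the lysosomal and lipid genes Gpnmb and Fabp5 had 168 CPM (154 to 183). Dividing cells led by Top2a and Mki67 had 114 CPM. Cells led by the neutrophil genes S100a9 and S100a8, and also by the macrophage/monocyte markers Plac8 and Ly6c2, had 115 CPM. Cells led by Sparc and Cst7 had 64.4 CPM (54.7 to 75.4), and Sparc is a marker on the microglia list. The 2 libraries filled different sub-clusters. Of the cells in metastasis, 524 were led by Gpnmb and Fabp5 and 472 by Sparc and Cst7, whereas 52 of the 92 naive cells were led by Mcpt2 and Cxcl13 and 22 by S100a9 and S100a8. In the Mcpt2 and Cxcl13 cells alone, where both libraries had cells, Mmp14 was 127 CPM from 46 UMIs in 120 cells of metastasis and 26.6 CPM from 3 UMIs in 52 cells of naive, and the log2 ratio was 2.25 (0.62 to 4.58). The 12 melanoma markers summed to 361 CPM in macrophage/monocyte-like cells of metastasis and 71.1 CPM in those of naive. Their part in the result was not tested.

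Within melanoma-like cells of metastasis, Mmp14 ranged from 101 to 132 CPM over the 6 sub-clusters, a narrow range. The dividing cells led by Ube2c and Nusap1 had 132 CPM (124 to 140), and the cells led by Kcnj13 and S100b had 131 CPM (121 to 142). A UMI of Mmp14 was present in 89.9% of these cells at a median depth of 29816 UMIs, and in 12.8% when thinned to 1000 UMIs. The 19 melanoma-like cells of naive had 120 CPM (92.9 to 153), at 30038 UMIs a cell.

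Mmp12, the macrophage elastase on chromosome 9, was almost wholly a gene of macrophage/monocyte-like cells in metastasis. These cells had 549 UMIs and 58.6 CPM (53.8 to 63.7), which was 94.2% of the gene's UMIs in kept cells of that library. Naive macrophage/monocyte-like cells had 0 UMIs in 92 cells, and 3 UMIs there would have been 11.2 CPM, so the level was at least 5.22-fold higher in metastasis. No other class of metastasis held more than 11 UMIs, and microglia-like cells held 2. The macrophage/monocyte-like class took in 472 cells of metastasis led by Sparc and Cst7, with 103 UMIs of Mmp12. Sparc is a marker on the microglia list, so the low microglia-like count depends on how the 2 classes were drawn. Free RNA of metastasis had 15.6 CPM of Mmp12 (4 UMIs), below the class level. The gene was concentrated in few cells: 103 of 1705 cells, 6.04% (4.96 to 7.28%), had a UMI, the highest cell had 37 UMIs, and the 10 highest cells held 37.3% of the UMIs.

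Among sub-clusters, the largest, led by Gpnmb and Fabp5, held most of the Mmp12, with 293 UMIs and 95.1 CPM (84.5 to 107). Dividing cells led by Top2a and Mki67 had 48.7 CPM (35.9 to 64.5), and cells led by Sparc and Cst7 had 42.5 CPM (34.7 to 51.6). Cells led by S100a9 and S100a8 had 6.92 CPM, and cells led by Mcpt2 and Cxcl13 had 2.76 CPM, from 1 UMI. A higher value of 156 CPM, in 27 cells led by haemoglobin genes, came from 2 cells. The 52 cells of the Mcpt2 and Cxcl13 sub-cluster made up most of the naive class, and their counterparts in metastasis also had little Mmp12. Of the 103 cells with Mmp12, 64 also had Mmp14 and 12 also had the collagenase gene Mmp13. Over all 1705 cells of the class in metastasis, 666 had Mmp14 and 32 had Mmp13. The part of depth in these overlaps was not tested. With each cell counted equally the level of Mmp12 was 44.4 CPM, and with the cells divided at a finer resolution, which put 1047 cells of metastasis in the microglia-like class and 675 in the macrophage/monocyte-like class, it was 84.2 CPM.

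**Figure D3:**
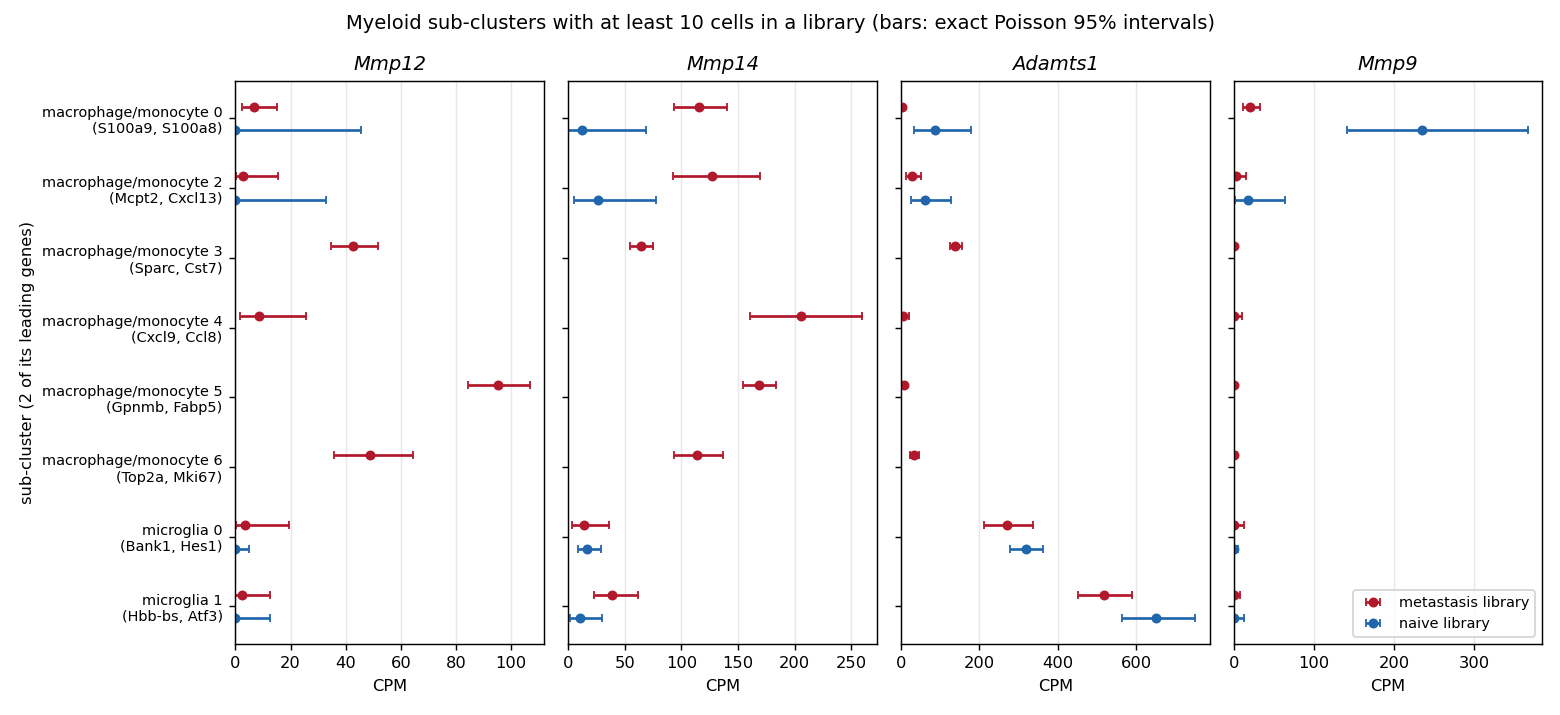
Levels of Mmp12, Mmp14, Adamts1 and Mmp9 in CPM with exact Poisson 95% intervals, for macrophage/monocyte-like and microglia-like sub-clusters named by leading genes, in metastasis (red) and naive (blue). Mmp12 peaked at 95.1 CPM in the Gpnmb and Fabp5 cells, Adamts1 in the microglia-like cells, and Mmp9 in the S100a9 and S100a8 cells of naive.

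Mmp9, a gelatinase that neutrophils store in granules, was the member with the lower level in macrophage/monocyte-like cells of metastasis. It had 21 UMIs and 2.24 CPM (1.39 to 3.42) in 8 cells of metastasis, against 24 UMIs and 89.8 CPM (57.5 to 134) in 5 cells of naive, and the log2 ratio was -5.33 (-6.24 to -4.42). A single cell held 10 of the UMIs in metastasis and a single cell held 11 in naive. Most came from the S100a9 and S100a8 sub-cluster, with 18 UMIs and 20.7 CPM in metastasis and 19 UMIs and 235 CPM in naive. The macrophage/monocyte markers Plac8 and Ly6c2 also led these cells, so they were not neutrophil-like alone. In that sub-cluster a UMI was present in 5 of 265 cells of metastasis and 3 of 22 cells of naive. Over the class the sums of Mmp9 UMIs were alike, while the class held 9375615 UMIs in all in metastasis and 267271 in naive. The 8 neutrophil markers summed to 1046 CPM in the class in metastasis and 9496 CPM in naive, and their part in the result was not tested. Mmp8, the neutrophil collagenase, also had a lower level, 12.6 CPM in metastasis against 89.8 CPM in naive, and the log2 ratio was -2.83 (-3.48 to -2.14). No class other than macrophage/monocyte-like cells held more than 6 UMIs of Mmp9 in either library.

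Of the 8 members with at least 20 UMIs in macrophage/monocyte-like cells, 2 were at least 2-fold higher in metastasis, Mmp12 and Mmp14, and 1 was at least 2-fold lower, Mmp9. Among 12224 genes measured there, 6.77% were at least 2-fold higher and 14.2% at least 2-fold lower. Of the 3 members measured in microglia-like cells, none passed 2-fold over the whole class in either direction, where 2.57% of 9058 genes were higher and 2.08% lower. In its cells led by haemoglobin genes and Atf3, Mmp14 was 38.6 CPM (17 UMIs) in metastasis against 10.1 CPM (3 UMIs) in naive. The log2 ratio there was 1.93 (0.14 to 4.34). In cells led by Bank1 and Hes1 it was -0.25 (-2.34 to 1.47), from 4 UMIs in metastasis and 12 in naive. The part of free RNA in these values was not tested. Adam10, the shedding protease, had 84.7 CPM in macrophage/monocyte-like cells of metastasis and 63.6 CPM in those of naive, and the log2 ratio was 0.41 (-0.28 to 1.20). Mmp2, the gelatinase that Mmp14 activates, had 58 UMIs in 53 cells of metastasis and 0 UMIs in the 92 naive cells. That depth could not show a difference, since 3 UMIs in naive would have been 11.2 CPM and the level in metastasis was 6.19 CPM.

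Mmp3, a stromelysin, came mainly from a handful of fibroblast-like cells in metastasis, and Mmp13, a collagenase, had its highest level in that class but more of its UMIs in macrophage/monocyte-like cells. Mmp3 had 45 UMIs and 143 CPM in 4 of 105 cells of metastasis, and 0 UMIs in 72 cells of naive. A single cell held 35 of them, or 77.8%. Mmp13 had 23 UMIs and 73.3 CPM in 2 fibroblast-like cells of metastasis and 0 UMIs in naive, with 19 UMIs in 1 cell. Both genes were found together in 1 fibroblast-like cell. The Poisson intervals treat UMIs as independent and therefore understate the uncertainty of values that rest on so few cells. Read as sums over the class, the levels in metastasis were at least 8.62-fold higher for Mmp3 and at least 4.41-fold higher for Mmp13. Of the 89 Mmp13 UMIs in metastasis, macrophage/monocyte-like cells held the largest part, with 52 UMIs and 5.55 CPM in 32 cells. The naive cells of that class had 1 UMI and 3.74 CPM, and the log2 ratio was 0.57 (-1.97 to 5.90), within 2-fold. In naive, 9 of the 11 UMIs of Mmp13 were in 1 mural-like cell.

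Fibroblast-like cells were the class with the highest Mmp2, which cuts gelatin and the collagen of basement membranes. They had 22 UMIs and 70.1 CPM (43.9 to 106) in metastasis and 8 UMIs and 44.3 CPM (19.1 to 87.4) in naive, and the log2 ratio was 0.66 (-0.56 to 2.04). Choroid plexus epithelium-like cells followed, with 21.2 CPM (16.6 to 26.7) in metastasis and 19.3 CPM (16.2 to 22.7) in naive, and mural-like cells had 19.0 CPM in metastasis against 11.1 CPM in naive. Melanoma-like cells of metastasis had 1.71 CPM. Free RNA of metastasis had 0 UMIs of Mmp2 in droplets with 10 to 100 UMIs (256869 UMIs in all), and 4.49 CPM (49 UMIs) in those with 100 to 300 UMIs. Of the 6 members measured in fibroblast-like cells, 3 were at least 2-fold higher in metastasis, Mmp3, Mmp13 and Adamts1, and 0 were lower. Among 4611 genes measured in this class, 7.76% were higher and 3.62% lower. Adamts1 had 42 UMIs and 134 CPM (96.5 to 181) in metastasis, against 7 UMIs and 38.8 CPM (15.6 to 80.0) in naive, and the log2 ratio was 1.79 (0.62 to 3.19). It was within 2-fold when thinned to 1000 UMIs, at 0.83, and with each cell named from its own marker UMIs, at 0.42.

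**Figure D4:**
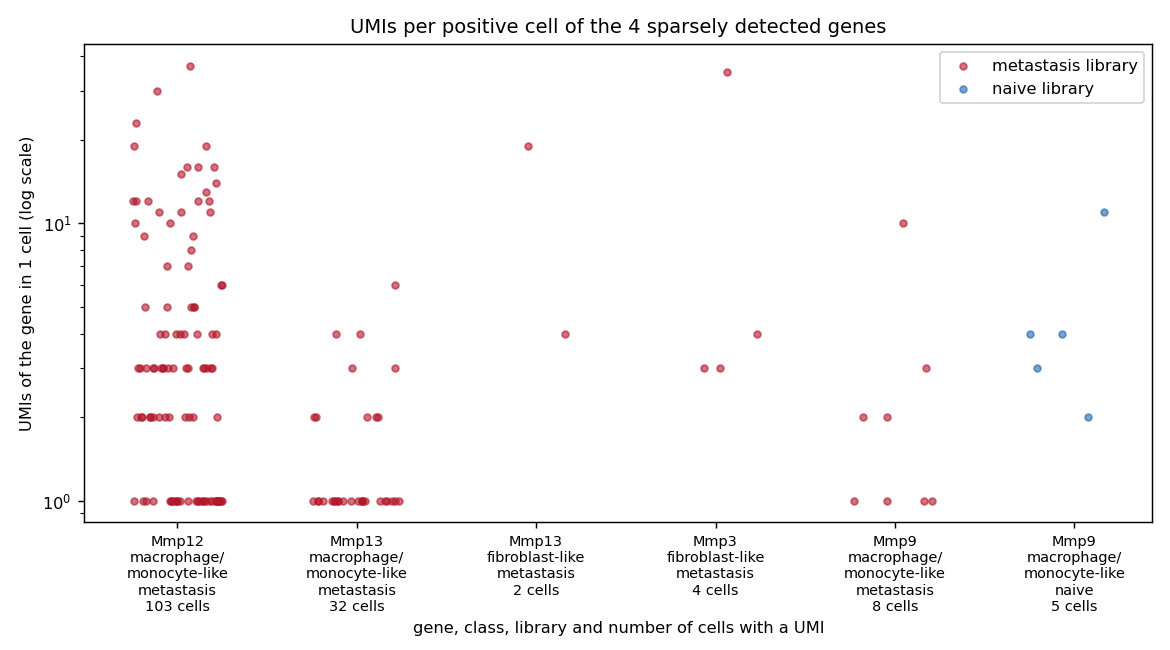
UMIs per positive cell on a log scale for Mmp12, Mmp13, Mmp3 and Mmp9, each point being 1 cell of the class and library named on the x axis. Mmp12 was spread over 103 cells with up to 37 UMIs, while Mmp3 in fibroblast-like cells rested on 4 cells, 1 of them with 35 UMIs.

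Mmp19, a broadly acting member that also cuts basement membrane proteins, was chiefly a gene of olfactory ensheathing-like cells, the glia that wrap olfactory axons. They had 102 UMIs and 54.8 CPM (44.7 to 66.6) in metastasis and 174 UMIs and 67.1 CPM (57.5 to 77.9) in naive, and the log2 ratio was -0.29 (-0.66 to 0.07). This was 52.0% of its UMIs in kept cells of metastasis and 83.7% of those of naive. Fibroblast-like cells had 35.1 CPM from 11 UMIs in metastasis and 11.1 CPM from 2 UMIs in naive, and macrophage/monocyte-like cells had 5.23 CPM from 49 UMIs in metastasis and 7.48 CPM from 2 UMIs in naive. Macrophage/monocyte-like cells, 1705 in metastasis against 92 in naive, held 49 of the 196 UMIs in kept cells of metastasis and 2 of the 208 in naive. Why the share of olfactory ensheathing-like cells was lower in metastasis was not tested. Mmp19 overlaps the gene Tmem198b and the antisense gene Gm47093 on the opposite strand of chromosome 10, and whether the deposited counts used strand is not given in the sources used here.

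Adamts1, the secreted proteoglycan-cutting protease on chromosome 16, was highest in endothelial-like and microglia-like cells. Endothelial-like cells had 459 CPM (434 to 484) in metastasis and microglia-like cells had 393 CPM (351 to 438), with overlapping intervals. Fibroblast-like, mural-like and melanoma-like cells of metastasis followed at 134, 131 and 117 CPM. In naive, microglia-like cells had 397 CPM (361 to 436), mural-like cells 277 CPM (226 to 337) and endothelial-like cells 207 CPM (163 to 258). Microglia-like cells thus had nearly the same level in both libraries, with a log2 ratio of -0.01 (-0.23 to 0.20). Shares of microglia-like cells with a UMI were 23.8% in metastasis and 21.8% in naive, and 17.7% in metastasis and 18.7% in naive when thinned. Oligodendrocyte-like cells had shares of 10.4% in metastasis and 11.6% in naive, or 4.08% in metastasis and 4.25% in naive when thinned. The microglia-like value was not stable to how the class was drawn, since at the finer resolution the log2 ratio was -1.02 and with at least 2000 UMIs per cell it was -0.72.

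Within the microglia-like class, Adamts1 was higher in cells led by haemoglobin genes and the early-response gene Atf3 than in cells led by Bank1 and Hes1. The Atf3 cells had 518 CPM (453 to 589) in metastasis and 651 CPM (562 to 750) in naive, and the Bank1 cells had 270 CPM (213 to 337) in metastasis and 319 CPM (279 to 363) in naive. By value both were thus lower in metastasis while the class as a whole was level, and the log2 ratio was -0.33 (-0.61 to -0.05) in the Atf3 cells and -0.24 (-0.63 to 0.14) in the Bank1 cells. Of the 2 small sub-clusters, 1 had 162 CPM in 21 cells of metastasis against 258 CPM in 24 cells of naive, and the other 219 CPM in metastasis (5 UMIs in 10 cells) against 116 CPM in naive (4 UMIs in 16 cells). The Atf3 cells made up 248 of the 479 cells of metastasis and 152 of the 619 cells of naive. In macrophage/monocyte-like cells of metastasis, Adamts1 was highest in the Sparc and Cst7 cells, at 139 CPM (125 to 155), which also had 42.5 CPM of Mmp12. In the Gpnmb and Fabp5 cells, which held most of the Mmp12, Adamts1 had 7.14 CPM (4.47 to 10.8). In the class as a whole it had 49.5 CPM in metastasis against 71.1 CPM in naive, and the log2 ratio was -0.52 (-1.18 to 0.22). Melanoma-like sub-clusters of metastasis ranged from 81.7 CPM in cells led by interferon-response genes to 178 CPM in cells led by Kcnj13 and S100b, leaving aside 25 shallow cells led by mitochondrial genes, which had 250.1 CPM.

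In endothelial-like cells Adamts1 had 1337 UMIs and 459 CPM in metastasis, against 77 UMIs and 207 CPM in naive, and the log2 ratio was 1.15 (0.82 to 1.50). The share of cells with a UMI was 64.4% in metastasis and 33.6% in naive, and 26.2% (20.7 to 32.3%) in metastasis and 14.7% (8.77 to 22.4%) in naive when thinned. The higher level went with sub-clusters found in metastasis alone. The 115 cells led by Rbp7 and Aplnr, a receptor gene of sprouting vessels, had 559 CPM (523 to 597). The 37 cells led by the smooth muscle genes Acta2 and Tagln had 380 CPM (343 to 420), at a median of 23924 UMIs and with 13 mural markers summing to 4417 CPM, and whether these barcodes held 2 cells was not tested. In the sub-cluster led by Hba-a1 and Spock2, which held 47 cells of metastasis and 100 of naive, Adamts1 was 159 CPM in metastasis against 239 CPM in naive, and the log2 ratio was -0.58 (-1.29 to 0.09), so the direction turned. Oligodendrocyte markers led a further 29 cells of metastasis and 2 of naive.

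Mmp14 in vessel cells followed the same sub-clusters. It had 81.2 CPM in the Rbp7 and Aplnr cells, 124 CPM in the Acta2 and Tagln cells, and in the Hba-a1 and Spock2 cells 18.4 CPM from 3 UMIs in metastasis and 3.46 CPM from 1 UMI in naive. Of the 83 endothelial-like cells of metastasis with a Mmp14 UMI, 77 also had Adamts1, which 150 of all 233 such cells had. The Rbp7 and the Acta2 cells were deeper, with medians of 6572 and 23924 UMIs in metastasis against 2542 in the Hba-a1 and Spock2 cells. The part of depth in this overlap was not tested. Mural-like cells led by Anxa1 and Ccl2, and also by the cell-cycle genes Prc1, H1f5 and Cks2, numbered 84 in metastasis and 3 in naive. In metastasis they had 196 CPM (164 to 232) of Mmp14. Mural-like cells led by Atp13a5 and P2ry14, a pericyte pattern, had 141 CPM from 6 UMIs in metastasis and 138 CPM from 8 UMIs in naive. Without the Anxa1 and Ccl2 cells, over the remaining 3 mural-like sub-clusters, each with at least 11 cells in both libraries, the log2 ratio was 1.29 in place of 2.51. That value rested on few UMIs and has no interval here. The Anxa1 cells held 134 of the 146 UMIs in metastasis, and the whole class held 11 in naive. Most Mmp14 UMIs of the vessel classes in metastasis were thus in cells with few or no counterparts in naive: 129 and 125 of 261 in the Rbp7 and the Acta2 cells, and 134 of 146 in the Anxa1 cells.

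Adamts1 went the other way in mural-like cells. It had 110 UMIs and 131 CPM (107 to 157) in metastasis, against 100 UMIs and 277 CPM (226 to 337) in naive, and the log2 ratio was -1.09 (-1.49 to -0.68). Of the 100 UMIs in naive, 88 were in the 52 cells led by Pln and Trpm3, and also by the choroid plexus marker Kl, at 405 CPM (325 to 499), and the 16 such cells of metastasis had 129 CPM (62.0 to 238). When clusters were drawn at resolution 0.5, the mural-like class lost cells and the log2 ratio was 1.80, a reversed direction. In the same class Adam10 had 96.2 CPM in metastasis against 58.3 CPM in naive, and the log2 ratio was 0.72 (0.02 to 1.49).

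Of the 3 members measured in endothelial-like cells, 2 were at least 2-fold higher in metastasis, Mmp14 and Adamts1, and 0 were lower, where 17.4% of 10244 genes were higher and 16.4% lower. Adamts1 was within 2-fold at resolution 0.5, with a log2 ratio of 0.66, and with at least 2000 UMIs per cell, with 0.72. Of the 4 members measured in mural-like cells, 1 was higher, Mmp14, and 1 lower, Adamts1, where 20.9% of 7911 genes were higher and 16.6% lower. Passing 2-fold was thus common in both vessel classes. In astrocyte-like cells none of the 3 members measured passed 2-fold, where 2.47% of 10362 genes were higher and 3.31% lower. Adamts1 in astrocyte-like cells had 47.5 CPM in metastasis against 27.9 CPM in naive, and the log2 ratio was 0.77 (0.06 to 1.45). Free RNA of Adamts1 was 62.3 CPM in metastasis (16 UMIs) against 18.4 CPM in naive (5 UMIs). In droplets with 100 to 300 UMIs it was 68.3 CPM in metastasis (745 UMIs) against 33.1 CPM in naive (354 UMIs). The astrocyte-like value was below this larger pool in each library. Free RNA thus moved with the astrocyte-like value, and its part was not tested.

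**Figure D5:**
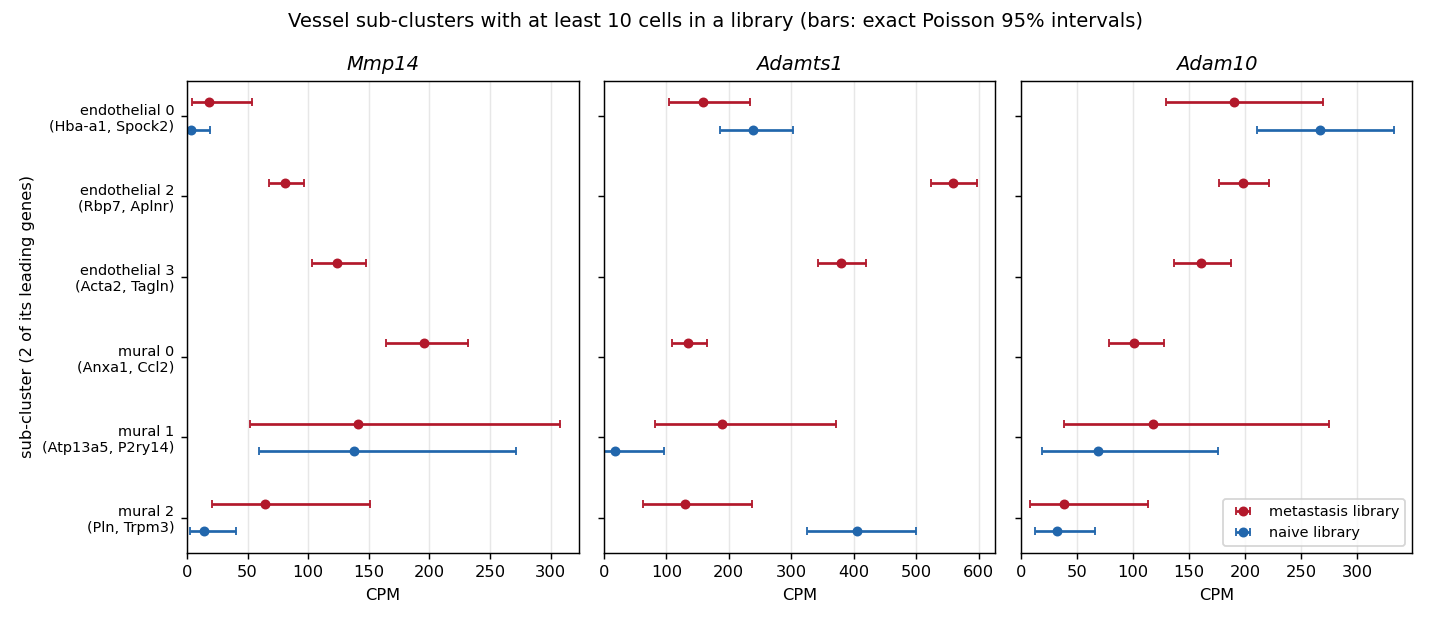
Levels of Mmp14, Adamts1 and Adam10 in CPM with exact Poisson 95% intervals, for endothelial-like and mural-like sub-clusters named by leading genes, in metastasis (red) and naive (blue). Adamts1 was 559 CPM in the Rbp7 and Aplnr cells found in metastasis alone, and 159 CPM in metastasis against 239 CPM in naive in the Hba-a1 and Spock2 cells.

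Adam10, the membrane protease that sheds Notch and other receptors, was found in every class. Among classes with at least 50 cells it ranged in metastasis from 42.4 CPM in astrocyte-like cells to 185 CPM (157 to 217) in microglia-like cells. Endothelial-like cells had 180 CPM (165 to 196) in metastasis and 242 CPM (194 to 297) in naive, and the log2 ratio was -0.42 (-0.75 to -0.08), within 2-fold. This direction turned at resolution 0.5, to 0.12. Oligodendrocyte-like cells, with 1923 UMIs in metastasis and 2019 in naive, had 116 CPM (111 to 122) in metastasis and 111 CPM (106 to 116) in naive. Microglia-like cells had 182 CPM in naive, and the log2 ratio was 0.02 (-0.29 to 0.33). Melanoma-like cells had 77.6 CPM (73.9 to 81.5) in metastasis, fewer than microglia-like cells. In no class with at least 50 cells in both libraries did Adam10 pass 2-fold. Its free RNA was 81.8 CPM in metastasis (21 UMIs) against 44.2 CPM in naive (12 UMIs), as high as its level in several classes.

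Of the 6 TspanC8 tetraspanins, which carry Adam10 to the cell surface, 4 were measured in endothelial-like cells, where Tspan14 was higher and Tspan5 lower, with 17.4% of all genes higher and 16.4% lower. Here and below, the ratios of list genes are for whole classes. Of the 233 endothelial-like cells of metastasis, the 115 led by Rbp7 and the 37 led by Acta2 had no counterparts in naive. The part of these cells in the list ratios was not tested. In macrophage/monocyte-like cells 1 of the 6 measured passed 2-fold, as a lower value, where 6.77% of all genes were higher and 14.2% lower. Of the 4 measured, 0 passed it in microglia-like cells, where 2.57% of all genes were higher and 2.08% lower. The same count, 0 of 4, was found in mural-like cells (20.9% of all genes higher, 16.6% lower) and astrocyte-like cells (2.47% higher, 3.31% lower). In endothelial-like cells Tspan14 had 74.1 CPM in metastasis against 26.8 CPM in naive, and the log2 ratio was 1.47 (0.56 to 2.55). Tspan5 had 81.0 CPM there in metastasis against 352 CPM in naive, and the log2 ratio was -2.12 (-2.43 to -1.80). Tspan10 was the most abundant of them in melanoma-like cells of metastasis, at 307 CPM. Of 12 genes whose proteins are known to be shed by Adam10, 9 were measured in macrophage/monocyte-like cells, where 2 were higher, Cxcl16 and Trem2, and 0 lower, with 6.77% of all genes higher and 14.2% lower. The median log2 ratio of the 9 was -0.45, against -0.24 over all genes there. In endothelial-like cells 10 were measured, of which 3 were higher and 3 lower, with a median of -0.38. Cxcl16, a chemokine with a membrane-bound form, was higher in macrophage/monocyte-like cells, with 442 CPM in metastasis against 202 CPM in naive, and in microglia-like cells, with 114 CPM in metastasis against 48.2 CPM in naive. Trem2, a lipid-sensing receptor, had 1750 CPM in macrophage/monocyte-like cells of metastasis and 778 CPM in those of naive, and the log2 ratio was 1.17 (0.97 to 1.37). App, the amyloid precursor, was lower in endothelial-like cells, with 651 CPM in metastasis against 1718 CPM in naive.

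Tissue inhibitors of metalloproteinases bind the active enzymes and block them. Of 6 inhibitor genes, 4 were measured in endothelial-like cells, and Timp1 was higher while Timp3 and the membrane inhibitor gene Reck were lower, with 17.4% of all genes higher and 16.4% lower. These values too are for the whole class, including its sub-clusters found in metastasis alone. Timp1 had 184 UMIs and 63.1 CPM in endothelial-like cells of metastasis, against 1 UMI and 2.68 CPM in naive, and the log2 ratio was 4.56 (2.06 to 9.87). In mural-like cells Timp1 had 120 UMIs and 142 CPM in metastasis and 0 UMIs in naive. Melanoma-like cells had 42.9 CPM of Timp1 in metastasis. Timp3, which is held in the matrix, had 367 CPM in endothelial-like cells of metastasis and 784 CPM in naive, and the log2 ratio was -1.10 (-1.28 to -0.90). Timp2, the partner of Mmp14 in activating Mmp2, had 889 CPM in macrophage/monocyte-like cells of metastasis and 483 CPM in naive, within 2-fold, and 250 CPM (5257 UMIs) in melanoma-like cells of metastasis. Melanoma-like and macrophage/monocyte-like cells, which had the most Mmp14 UMIs in metastasis, thus also held Timp2. The levels of these genes did not go together over all classes of metastasis. Endothelial-like cells, with 89.5 CPM of Mmp14, had 24.0 CPM of Timp2, while microglia-like cells, with 31.8 CPM of Mmp14, had 520 CPM. Mural-like cells, highest in Mmp14, had 149.6 CPM of Timp2 in metastasis against 299.7 CPM in naive, at least 2-fold lower. Of the 272 Mmp2 UMIs in metastasis, choroid plexus epithelium-like cells held 72, macrophage/monocyte-like cells 58, oligodendrocyte-like cells 46, melanoma-like cells 36 and fibroblast-like cells 22.

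Several members cut proteins of the basement membrane, the sheet of matrix around vessels. Of 13 basement membrane genes, 12 were measured in endothelial-like cells, of which 8 were at least 2-fold higher and 2 lower, where 17.4% of all genes were higher and 16.4% lower, with a median log2 ratio of 1.81 against -0.03 over all genes measured. Col4a1, a chain of collagen IV, had 9516 UMIs and 3265 CPM in metastasis, against 188 UMIs and 505 CPM in naive, and the log2 ratio was 2.69 (2.49 to 2.91). Lamb1, a laminin chain, had 257 CPM in metastasis against 10.7 CPM in naive, and the log2 ratio was 4.58 (3.22 to 6.46). The 2 lower genes were the laminin chains Lamb2, with 26.8 CPM in metastasis against 126 CPM in naive, and Lama2, with 8.58 CPM in metastasis against 24.2 CPM in naive, the second of which was named after its values had been seen. In mural-like cells 11 were measured, 6 were higher and 1 lower, where 20.9% of all genes were higher and 16.6% lower, with a median of 1.50 against 0.06 over all genes. Col4a1 had 2935 CPM in mural-like cells of metastasis and 380.2 CPM in naive. Both vessel classes of metastasis included sub-clusters with few or no naive cells, and their part in these ratios was not tested. In fibroblast-like cells 11 were measured, of which 2 were higher and 0 lower, where 7.76% of all genes were higher and 3.62% lower, with a median of 0.05 against 0.06 over all genes.

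Other genes of these families were also measured. Their counts stand beside 17.4% of all genes higher and 16.4% lower in endothelial-like cells, and 6.77% higher and 14.2% lower in macrophage/monocyte-like cells. The endothelial-like values are again for the whole class, including its sub-clusters found in metastasis alone. Of 12 other ADAM genes, 5 were measured in endothelial-like cells, where Adam12 and Adam19 were higher and Adam15 lower. Adam12 had 158 UMIs and 54.2 CPM in metastasis and 0 UMIs in naive, at least 6.73-fold higher, and Adam19 had 49.7 CPM in metastasis against 2.68 CPM in naive. Of 18 other ADAMTS genes, 5 were measured there, and Adamts4, Adamts5 and Adamts9 were higher. Adamts9, which cuts proteoglycans as Adamts1 does, had 358 UMIs and 123 CPM in metastasis, against 4 UMIs and 10.7 CPM in naive, and the log2 ratio was 3.52 (2.15 to 5.40). Of 11 genes of activating proteases, their inhibitor and receptors, 9 were measured in endothelial-like cells, where Plaur, the urokinase receptor gene, was higher and Plat, Bsg and Lrp1 were lower. Bsg, a surface glycoprotein known to induce metalloproteinases, was lower in endothelial-like cells, with 1508 CPM in metastasis against 13058 CPM in naive, and the log2 ratio was -3.11 (-3.17 to -3.06). In macrophage/monocyte-like cells 7 of the other ADAM genes were measured, with Adam8, Adam9 and Adam15 higher and Adam19, Adam22 and Adam33 lower, of which Adam15 and Adam19 were named in this class after their values had been seen. Adam8, a protease of activated leukocytes, had 1041 UMIs and 111 CPM there in metastasis, against 3 UMIs and 11.2 CPM in naive, and the log2 ratio was 3.31 (1.76 to 5.59). Of the 16 other matrix metalloproteinases, 4 were measured in macrophage/monocyte-like cells, and the neutrophil genes Mmp8 and Mmp25 were lower in metastasis.

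The genes whose pattern over classes was most like each member were ranked by the Pearson correlation of log2(CPM + 10) over 25 points, each a class of 1 library with at least 50 cells, among 16745 genes. For Mmp12 these were Arg1, Mcpt2 and Gdf3, all at 0.97, and for Mmp2 they were the fibroblast genes Ogn and Fbn1, at 0.91 and 0.88, and Scara5, at 0.86. For Mmp14 the nearest were P3h3 at 0.85, Txndc5 at 0.82 and Nradd at 0.77. Mmp19 was followed by Srpx at 0.94, Alx4 at 0.93 and Wnt6 at 0.92. Adamts1 was followed by Epha2 at 0.83, Inka1 at 0.82 and the endothelial gene Ecscr at 0.80, and Adam10 by Rasgrp3 at 0.88, Rac1 at 0.84 and Wasf2 at 0.83. For Mmp13 they were Pi16 at 0.90, Ubd at 0.82 and Zbtb3 at 0.79. Points of 1 library share its depth and free RNA, so these values describe the 2 libraries only, and those of Mmp12 and Mmp13 rest on 1 or 2 points with a high level. Those of Mmp19 also rest on few points, since outside olfactory ensheathing-like and fibroblast-like cells it had at most 7.48 CPM. Likeness over classes is not likeness over cells: the sub-cluster led by Mcpt2 and Cxcl13 had 2.76 CPM of Mmp12 in metastasis, from 1 UMI.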

How the data were processed

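Single-cell RNA was sequenced from 1 library of metastasis and 1 of naive. The deposited files hold raw UMI counts per gene and barcode, unfiltered. STARsolo and the GRCm38 build are named in the submitters' processing notes, while the version, annotation and strand setting are not given in the sources used here. Barcodes with at least 1000 UMIs numbered 13937 in metastasis and 14301 in naive. The gene limit removed 83 and 171, the mitochondrial limit 109 and 135, and a scrublet doublet score above 0.2, set after the automatic threshold had found 0 doublets in metastasis and 855 in naive, removed 688 (5.01%) and 888 (6.35%).

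Cells of both libraries were clustered with scanpy 1.11.5 (2000 variable genes, 30 principal components, 15 neighbours, Leiden resolution 1) without integration. A cluster took a name when the median log2 fold of a marker list was at least 1 and at least 3 markers passed 2-fold, with 20 CPM added, thresholds set after the clusters had been seen. Classes rebuilt in this way can differ from the study's own. Unnamed clusters held 1365 cells of metastasis and 649 of naive. UMIs were summed per class and library and scaled to CPM. Levels have exact Poisson intervals, ratios exact conditional binomial ones and shares Clopper-Pearson ones. A class sum of 0 was replaced by 3 UMIs, so that the ratio became a bound. A bound was counted as higher or lower only in its own direction. Such folds carry no counting error for the sum above 0. Genes with at least 20 UMIs over both libraries in a class were measured, and at least 2-fold is a rule of size, not a test. The interval calculation was tested on simulated counts. Coordinates of genes are from GENCODE M21.

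The members, lists and marker genes were chosen with earlier results of these data known. All members are named. Of each other list, the 2 highest levels and up to 4 largest ratios in the melanoma-like, myeloid and vessel classes could be named, ratios that are bounds in the wrong direction left out, and the 3 genes most like each member with at least 100 UMIs. Fibroblast-like values of list genes are given as counts. The closing section gives the effect of other limits on UMIs, genes and doublets, other cluster resolutions, names, scalings and weights, thinning, and another minimum and pseudocount.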

Additional observations from a re-analysis of the deposited data

How the results depend on the processing

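No paired analysis was possible because each group was 1 library, so the groups share fewer than 2 replicate numbers and no test was made. Of the alternative values for the main levels, ratios and gene counts, 69 stayed within their counting interval or 1.5 times, 30 moved and 1 reversed; for other members' values 488 stayed, 59 moved and 3 reversed. With the cells restricted to at least 2000 UMIs, the log2 ratio of Adamts1 was -0.72 in microglia-like and 0.72 in endothelial-like cells, and that of Adam10 in endothelial-like cells reversed to 0.26. At resolution 0.5, Adamts1 was 0.66 in endothelial-like cells and reversed to 1.80 in mural-like cells, Adam10 reversed to 0.12 in endothelial-like cells, and Mmp14 was 1.45 in mural-like cells. At resolution 2, Adamts1 was -1.02 in microglia-like cells and Mmp12 was 84.2 CPM in macrophage/monocyte-like cells of metastasis. With each cell named from its own marker UMIs, Adamts1 was -0.59 in microglia-like cells. With at most 10% mitochondrial UMIs, Mmp12 was 68.3 CPM. Scaled without mitochondrial and the 50 most abundant genes, Mmp14 was 113 CPM in melanoma-like and Adamts1 419 CPM in endothelial-like cells of metastasis. With each cell weighted equally, these were 130 CPM and 403 CPM, Mmp12 was 44.4 CPM, and the log2 ratio of Mmp14 in mural-like cells was 1.42. Thinned to 1000 UMIs, the log2 ratio of Mmp14 was at least 0.58 in endothelial-like cells, where naive then had 0 UMIs, and 1.10 in mural-like cells. In sub-clusters with cells of both libraries only, an alternative chosen after seeing the data, Adamts1 reversed to -0.58 in endothelial-like cells and Mmp14 was 1.29, from few UMIs, in mural-like cells. The cause of these moves was not tested.

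Counts of genes past 2-fold fell with a minimum of 100 UMIs or with 10 CPM added. In macrophage/monocyte-like cells the 827 higher genes became 334 with 10 CPM added, and the 1733 lower genes became 582 and 446. In microglia-like cells the 233 higher genes became 33 and 76, and the 188 lower genes became 8 and 10. In endothelial-like cells the 1786 higher genes became 1030 and 1156, and the 1684 lower genes became 597 and 960. In mural-like cells the 1655 higher genes became 605 and the 1313 lower genes became 255 with a minimum of 100 UMIs. At 2000 UMIs no cluster took the macrophage/monocyte-like name, and the naive class had 10 cells with at most 10% mitochondrial UMIs and 3 at resolution 2, so no ratio was given there, nor for mural-like cells at 2000 UMIs, with 16 naive cells. Depth limits the naive values of fibroblast-like, macrophage/monocyte-like, mural-like and endothelial-like cells, which rest on 180406, 267271, 360371 and 372635 UMIs in all.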
